A study of Bos taurus and other sequences with 9 samples.

Results

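The loci described here are the U4 small nuclear RNA (snRNA) loci in small non-coding RNA (ncRNA) sequencing of extracellular vesicle (EV) preparations from cell culture media. A row of the small ncRNA table was taken as a member if its type was snRNA and its name began with RNU4- or with U4 and a dot, which excluded the minor-spliceosome RNA U4ATAC. The rule found 50 loci, 7 named RNU4- and 43 named U4, among 419 snRNA loci and 1361 small ncRNA loci other than miRNA. As a family the loci were chosen by their summed spike-in normalized values in UF-dFBS and FBS, which lay close together, so the comparison of UF-dFBS with FBS is given as a description with no test.

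The 9 samples came from 5 kinds of medium and held no cells. By the study's list of media, the FBS-based samples were basal medium with serum as a supplement and antibiotics, not undiluted serum. Their names refer to the serum added. FBS was untreated fetal bovine serum, labelled as from Sigma-Aldrich in FBS-1 and from Gibco in FBS-2. The study's list of media gives both sera the same catalogue number with different lots, so Sigma and Gibco here name the sera as labelled. UC-dFBS was EV-depleted by ultracentrifugation, and UF-dFBS was the flow-through of a centrifugal ultrafilter, each prepared once from the Sigma serum (number 1) and once from the Gibco serum (number 2). SBI-dFBS was a commercial exosome-depleted FBS from System Biosciences in 2 lots, and StemPRO was a defined serum-free medium from Gibco in 1 sample. The 8 FBS-based samples were thus 2 per medium from different sera or lots, and the spread within a medium includes the difference between those sera or lots. Reads of bovine material were assigned to human loci (GRCh37), so a locus name gives the human copy a read matched and not the bovine gene it came from.

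U4 is one of the RNAs of the major spliceosome. It pairs with U6 snRNA in the U4/U6 particle, joins U5 in the tri-snRNP, and is released before U6 takes part in catalysis. The human genome holds a pair of expressed U4 genes, RNU4-1 and RNU4-2, and many U4-derived pseudogene copies with similar sequence.

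The libraries held 6679 counts (StemPRO) to 6867736 counts (UF-dFBS-1), with 82513 in UF-dFBS-2. The deposited normalized value is the count divided by a factor fitted to external spike-in RNAs, which ranged from 3.78 (SBI-dFBS-2) to 108 (StemPRO). It was 4.84 (FBS-1) and 55.2 (UF-dFBS-1) in the Sigma serum, and 7.45 (FBS-2) and 24.0 (UF-dFBS-2) in the Gibco serum. A floor of 3 counts corresponded to a normalized value of 0.0278 (StemPRO) to 0.794 (SBI-dFBS-2). All intervals below are 95% intervals for counting error only.

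Summed over the 50 loci, the Sigma serum gave 2699 U4 counts untreated (FBS-1), 2157 after ultracentrifugation (UC-dFBS-1) and 28604 after ultrafiltration (UF-dFBS-1). The Gibco serum gave 50 (FBS-2), 208 (UC-dFBS-2) and 179 (UF-dFBS-2), commercial lots 1 and 2 (SBI-dFBS) gave 307 and 6008, and StemPRO gave 4. Divided by the spike-in factor, the sums were 557.2, 330.0 and 517.9 for the Sigma serum, 6.71, 30.5 and 7.45 for the Gibco serum, 33.9 and 1591 for the commercial lots and 0.0370 for StemPRO, in the same order. On this scale SBI-dFBS-2 was highest, followed by the 3 Sigma samples, then SBI-dFBS-1, the 3 Gibco samples and StemPRO. In this order, neighbours whose counting interval of the ratio spanned 1 were SBI-dFBS-1 and UC-dFBS-2 (ratio 1.11, 0.931 to 1.33) and UF-dFBS-2 and FBS-2 (ratio 1.11, 0.808 to 1.55). The mean over each medium was 281.9 ± 389 (FBS), 180.2 ± 212 (UC-dFBS), 262.7 ± 361 (UF-dFBS) and 812 ± 1101 (SBI-dFBS), with SD and n = 2 each, and the ranges of all 4 media overlapped.

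**Figure D1:**
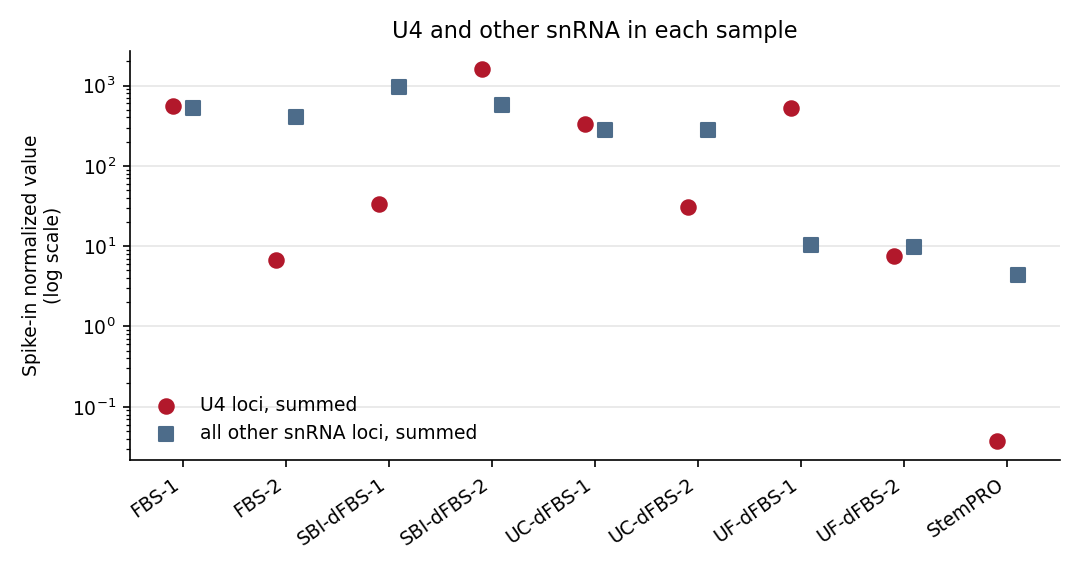
Summed spike-in normalized value of the 50 U4 loci and of the 369 other snRNA loci in each of the 9 samples, on a log axis. In the ultrafiltered sera the other snRNA stood at 10.4 and 9.74, while U4 stood at 517.9 and 7.45, close to its level in the matching untreated serum.

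The counts of the U4 loci lay almost entirely on 10 loci, those with at least 10 counts in at least 2 FBS-based samples. These 10 held 98.0% to 99.6% of the U4 counts in each FBS-based sample. RNU4-1-201 and RNU4-2-201, the human U4 genes, lie 1193 nt apart on the minus strand at chr12:120730900-120731040 and chr12:120729566-120729706 (GRCh37). RNU4-1-201 had 284 counts (FBS-1), 215 (UC-dFBS-1) and 2935 (UF-dFBS-1) in the Sigma serum, 3, 18 and 17 in the same media of the Gibco serum, 23 and 586 in SBI-dFBS lots 1 and 2, and 0 in StemPRO. RNU4-2-201 had 278, 216 and 2767 counts in the Sigma serum, 7, 20 and 18 in the Gibco serum, 41 and 594 in the SBI-dFBS lots and 0 in StemPRO. Neither gene stood above the other 8 loci, whose counts in UF-dFBS-1 ranged from 2622 to 2966.

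The other 8 loci were RNU4-4P-201 at chr3:172514219-172514348 and RNU4-5P-201 at chr10:111629616-111629750, which their names mark as pseudogenes, and 6 further U4 copies. U4.26-201 (chr1:93166376-93166491, minus strand) had the highest count in UF-dFBS-1 and held 275 (FBS-1), 218 (UC-dFBS-1) and 2966 counts in the Sigma serum, 4, 26 and 22 in the Gibco serum, 32 and 628 in the SBI-dFBS lots and 0 in StemPRO. U4.57-201 on chromosome 8 had the lowest count in UF-dFBS-1 and held 259, 190 and 2622 in the Sigma serum, 1, 25 and 14 in the Gibco serum, 33 and 572 in the SBI-dFBS lots and 1 in StemPRO. The pair therefore differed by a ratio of 1.13 in the deepest library. The remaining 4 copies were U4.44-201 at chr2:128229810-128229991, U4.60-201 at chr11:105695360-105695496, U4.2-201 at chr11:66382435-66382561 and U4.24-201 on chromosome 8, with 2743 (U4.2-201) to 2935 (U4.24-201) counts in UF-dFBS-1 and 253 (U4.2-201) to 290 (U4.24-201) in FBS-1.

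Counts were spread almost evenly over these 10 loci where they were high, and less evenly where they were few, as in FBS-2 and UF-dFBS-2. Per locus they ranged from 229 to 290 in FBS-1 (mean 268.1 ± 18.0, SD over loci), from 1 to 10 in FBS-2 (mean 4.9 ± 2.51), from 23 to 41 in SBI-dFBS-1 (mean 30.1 ± 5.84), from 572 to 628 in SBI-dFBS-2 (mean 598 ± 19.4), from 190 to 230 in UC-dFBS-1 (mean 214.6 ± 12.3) and from 17 to 26 in UC-dFBS-2 (mean 20.6 ± 2.95). In UF-dFBS-1 they ranged from 2622 to 2966 (mean 2847.9 ± 108) and in UF-dFBS-2 from 11 to 26 (mean 17.8 ± 4.49). The variance over loci divided by the mean, which is 1 for independent counts of equal expectation, was 0.423 to 1.29 in the other FBS-based samples and 4.13 in UF-dFBS-1. How reads that match several loci equally well were placed is not stated, so the 10 loci cannot be treated as independent measurements and the summed value is the firmer quantity.

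**Figure D2:**
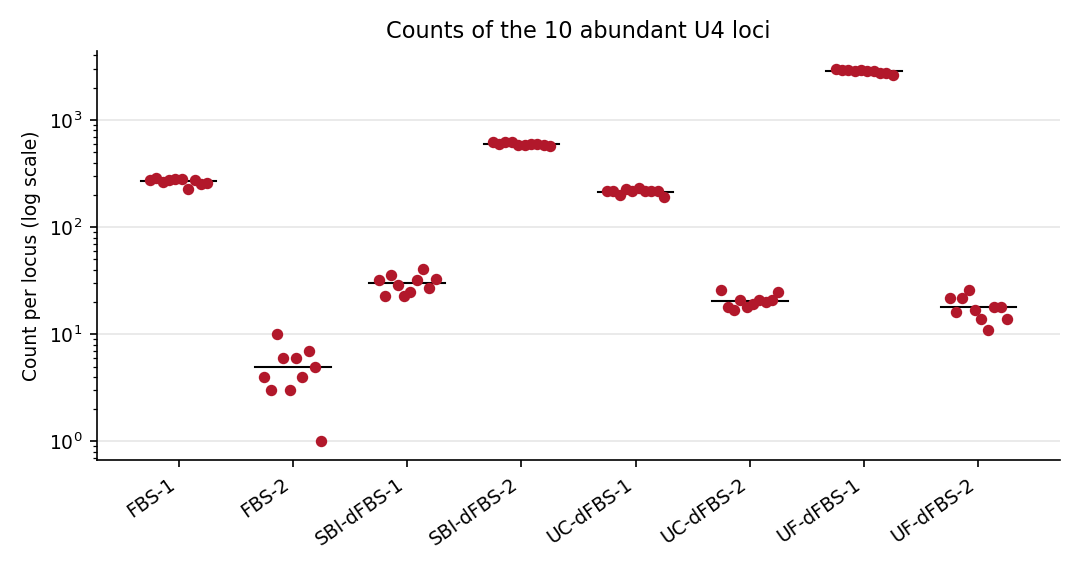
Counts of each of the 10 abundant U4 loci in the 8 FBS-based samples, on a log axis, with a dot per locus and a black line at the mean. Where counts are high the loci of a sample lie close together, as in UF-dFBS-1 (2622 to 2966), and where they are few farther apart, as in FBS-2 (1 to 10). The samples differ by orders of magnitude.

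The 10 loci shared neither a chromosome nor a strand. They lay on 7 chromosomes, 3 on the plus and 7 on the minus strand, and were annotated at 116 to 230 nt. All 50 loci lay on 20 chromosomes, 26 on the plus and 24 on the minus strand, at 84 to 230 nt, of which 141 nt was the commonest length (14 loci, 3 of the abundant ones).

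The other 40 loci had few counts. U4.53-201 (chr16:68363290-68363432) had 23 counts in UF-dFBS-1 and at most 5 in any other sample, and U4.6-201 (chr5:90566544-90566684) had 25 in UF-dFBS-1 and at most 5 elsewhere. Of these 40 loci, 3 reached 10 counts in a sample, all in UF-dFBS-1, and the remaining 37 had at most 7. A total of 16 loci had a single count over all samples, 10 were seen in UF-dFBS-1 alone, and 21 had the same counts as another locus in every sample. The summed normalized value of the 40 loci was 3.72, 1.68 and 2.26 in the Sigma serum (untreated, ultracentrifuged and ultrafiltered), 0.134, 0.293 and 0.0416 in the Gibco serum, 0.663 and 7.41 in the SBI-dFBS lots and 0.0278 in StemPRO. As in the whole sum, SBI-dFBS-2 was highest and the Sigma samples lay above the Gibco samples. The Gibco values rest on 1 (FBS-2), 2 (UC-dFBS-2) and 1 (UF-dFBS-2) counts, under the floor of 3 counts, so this order says little. UF-dFBS-1 showed the most loci (39 of 50 with a count, against 23 in FBS-1), and it was also the deepest library.

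Within the same serum, the normalized U4 sum in UF-dFBS was 0.929 times that in FBS for the Sigma serum (0.894 to 0.967) and 1.11 times for the Gibco serum (0.808 to 1.55). The other 369 snRNA loci together stood at 0.0199 times the FBS value in the Sigma serum (0.0182 to 0.0218) and 0.0242 times in the Gibco serum (0.0211 to 0.0277). These are the ratios for which the U4 loci were chosen. They rest on the spike-in factor, which was 11.4 times as high in UF-dFBS-1 as in FBS-1 and 3.22 times as high in UF-dFBS-2 as in FBS-2. The raw U4 counts were 10.6 and 3.58 times as high, and as a share of all counts U4 was 6.18 and 26.2 times as high, so a level near that of FBS holds on the spike-in scale, and the part of the factor in it was not tested.

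The proportion of U4 among snRNA does not involve the spike-in factor. Per count of other snRNA, the Sigma serum held 1.06 U4 counts untreated, 1.17 after ultracentrifugation and 49.7 after ultrafiltration, and the Gibco serum held 0.0167, 0.109 and 0.765. This proportion was 46.7 times as high in UF-dFBS as in FBS in the Sigma serum and 45.8 times in the Gibco serum, although the sera started 63.7-fold apart. The other snRNA it is measured against was low after ultrafiltration. Its normalized sum was 10.4 (UF-dFBS-1) and 9.74 (UF-dFBS-2), against 4.41 in the serum-free StemPRO. U4 made up 51.5% of the snRNA counts in FBS-1 (Wilson interval, 50.2 to 52.9), 1.64% in FBS-2 (1.25 to 2.16), 98.0% in UF-dFBS-1 (97.9 to 98.2) and 43.3% in UF-dFBS-2 (38.6 to 48.2). These shares compare single libraries in the comparison that chose the loci, and their intervals cover counting error only.

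**Figure D3:**
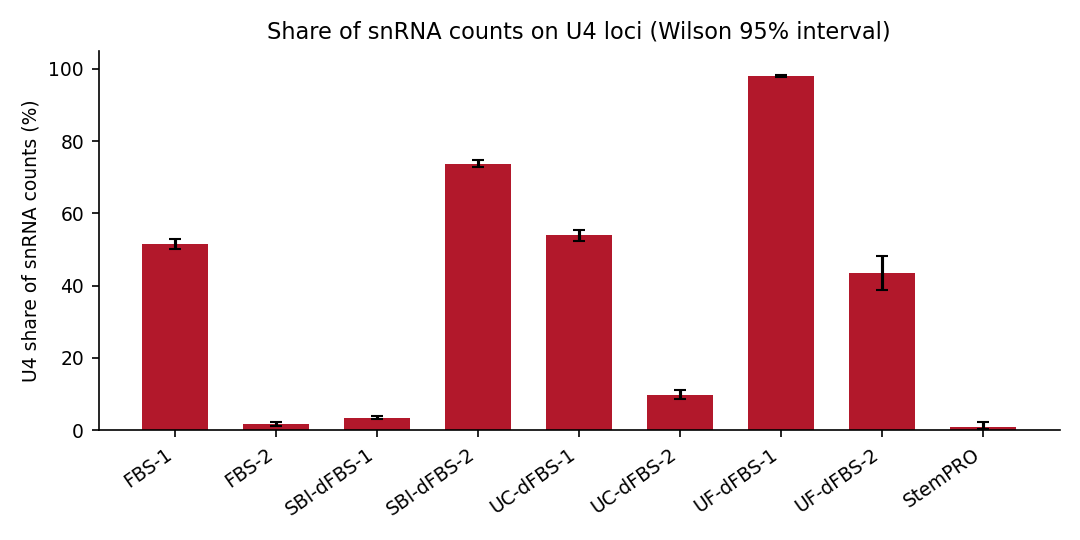
U4 counts as a percentage of all snRNA counts in each sample, as bars from 0 with Wilson 95% intervals. U4 made up 98.0% of snRNA counts in UF-dFBS-1 and 43.3% in UF-dFBS-2, against 51.5% and 1.64% in the untreated sera.

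The ratios of single U4 loci followed the sum. Over the 10 abundant loci, UF-dFBS-1 against FBS-1 ranged from 0.873 to 1.09 (median 0.916), with 9 loci below 1 and 1 above. UF-dFBS-2 against FBS-2 ranged from 0.683 to 4.34 (median 1.23), with 4 below and 6 above, from counts of at most 26 per locus. The 40 loci with few counts together stood at 0.609 in the Sigma serum (0.370 to 1.06).

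The other spliceosomal RNAs are given by their role beside U4. U6, which pairs with U4, had UF-dFBS values 0.261 (Sigma) and 0.275 (Gibco) times those in FBS, from 44 and 131 counts in FBS-1 and UF-dFBS-1 and 35 and 31 in FBS-2 and UF-dFBS-2. U5, which joins U4 and U6 in the tri-snRNP, stood at 0.216 and 0.186, with only 3 counts in UF-dFBS-2. The normalized levels behind these ratios were low, and the serum-free StemPRO held comparable amounts. U6 stood at 2.37 (UF-dFBS-1), 1.29 (UF-dFBS-2) and 0.963 (StemPRO), and U5 at 0.579, 0.125 and 0.4998. U1, which recognises the 5′ splice site, stood at 0.0114 and 0.0460 times its FBS value, and U2, which binds the branch point, at 0.0256 and 0.0194. Their normalized levels were low as well, with U1 at 0.905 (UF-dFBS-1), 3.37 (UF-dFBS-2) and 1.16 (StemPRO). U2 stood at 4.45, 2.62 and 1.66 in the same samples. Of the minor spliceosome, which removes a rare class of introns, U11 stood at 0.00224 and 0.00546 times its FBS value and U12 at 0.0211 and 0.0231. Their levels lay above StemPRO, with U11 at 0.398, 0.624 and 0.0370 and U12 at 1.67, 1.62 and 0.0926. U6atac had at most 1 count in a sample, and U4ATAC, the minor-spliceosome counterpart of U4, had 1 count in FBS-2 and none elsewhere. U7, which acts in histone mRNA 3′ end processing and not in splicing, had 2 counts in UF-dFBS-1 and 1 in UF-dFBS-2. The place of U4 above the other classes is what it was chosen for and is not a finding.

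Outside snRNA, miRNA stood at 0.00181 and 0.00234 times its FBS value, snoRNA at 0.0704 and 0.0259, Y RNA at 0.0763 and 0.0601, and tRNA at 0.158 and 0.0528 (Sigma and Gibco). Of 212 other single loci with at least 10 counts in both FBS samples, 23 reached or passed the ratio of the U4 sum in the Sigma serum, all of them tRNA loci, and 0 did so in the Gibco serum. The highest ratio among them was 1.76 in the Sigma serum and 0.370 in the Gibco serum, and their medians were 0.0834 and 0.0313. This sets a sum against single loci. The abundant U4 loci held 1 to 10 counts each in FBS-2, so most would miss this filter. As this ratio chose the U4 loci, their rank is not a finding.

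**Figure D4:**
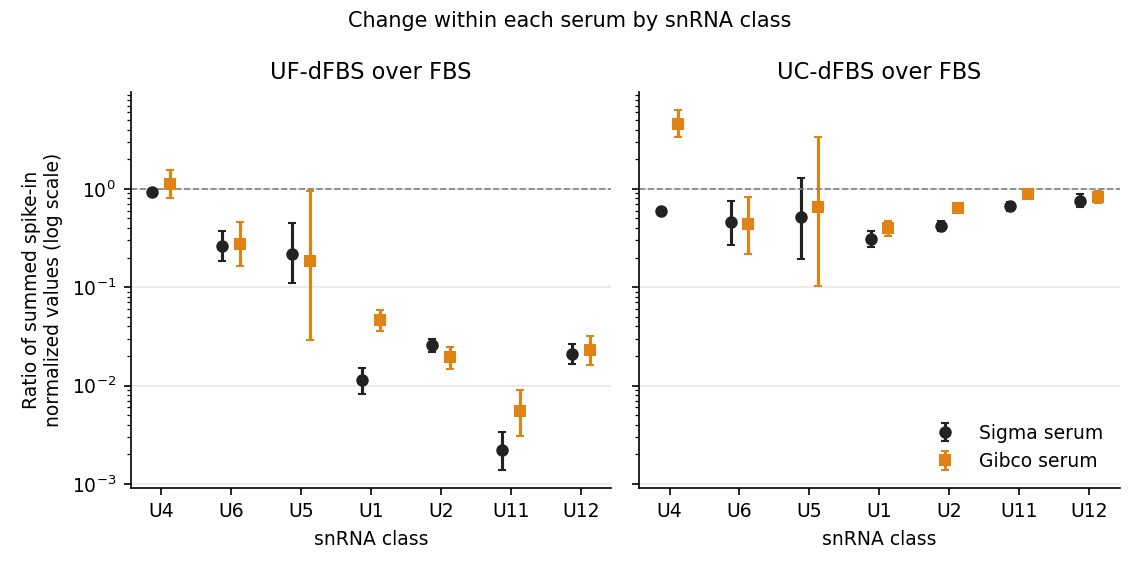
Summed normalized value in UF-dFBS and in UC-dFBS divided by that in FBS of the same serum, for U4 and the other snRNA classes, on a log axis, with exact 95% counting intervals (circles Sigma, squares Gibco). After ultrafiltration U4 lies near 1 (0.929 and 1.11) and U11 lowest (0.00224 and 0.00546). After ultracentrifugation the U4 ratio is 0.592 in the Sigma and 4.55 in the Gibco serum.

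After ultracentrifugation, U4 stood below its FBS level in the Sigma serum and above it in the Gibco serum. The U4 sum went from 557.2 in FBS-1 to 330.0 in UC-dFBS-1 (ratio 0.592, 0.559 to 0.627) and from 6.71 in FBS-2 to 30.5 in UC-dFBS-2 (ratio 4.55, 3.32 to 6.32). All 10 abundant loci followed, with ratios of 0.544 to 0.699 in the Sigma serum and 1.86 to 27.3 in the Gibco serum. The other snRNA together stood at 0.539 and 0.696, below FBS in both sera. Per count of other snRNA, U4 was 1.10 times as high in UC-dFBS-1 as in FBS-1 and 6.53 times as high in UC-dFBS-2 as in FBS-2. With 1 sample per serum and medium, whether the sera differed in this response was not tested.

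Across both sera, 0 of the 10 U4 loci tested differed between UC-dFBS and FBS by edgeR's quasi-likelihood test with Benjamini-Hochberg adjustment, against 0% of 363 loci. This fit had medium as its only term and left out the pairing by serum, so the difference between the sera was part of its spread. At an unadjusted p under 0.05, edgeR gave 12 loci, 0 of them U4, while DESeq2 gave 0 adjusted calls with its own size factors (8 unadjusted) and 0 with the spike-in size factors (15 unadjusted). The log2 fold changes of the U4 loci ranged from -0.76 to -0.40 (median -0.66, all loci -0.87), with a median standard error of 2.53 and an adjusted p of 0.989, so that this fit could hardly have called any locus. Their median turned to 0.84 with serum as a block (6 samples), a fit that called 8 of 322 loci, all lower and 0 of them U4, and to 0.77 with TMM scaling, which moved the median of all loci from -0.87 to 0.14. The ratio of the group means, which also leaves out the pairing, was 0.639 ± 1.16 (propagated SD, n = 2 each), and 2 samples against 2 allow no exact p below 0.333.

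The commercial SBI-dFBS lots differed widely in U4. Lot 2 held 1591 and lot 1 held 33.9 normalized U4 counts, a ratio of 46.9 (41.8 to 52.7), while the other snRNA went the other way, with 567.1 in lot 2 and 970.9 in lot 1. U4 was 3.38% of the snRNA counts in lot 1 (3.03 to 3.77) and 73.7% in lot 2 (72.8 to 74.7), an 80.2-fold difference in U4 per count of other snRNA. Against FBS, 0 of 10 U4 loci passed the edgeR test (0% of 363 loci, and 4 loci at an unadjusted p under 0.05, 0 of them U4), while DESeq2 called 0 loci with spike-in size factors and 1 with its own, which was not a U4 locus. The U4 log2 fold changes ranged from 1.42 to 1.75 (median 1.54, median standard error 2.58, all loci 1.11, adjusted p 0.970), and their median was -3.08 without SBI-dFBS-2.

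U4 was higher in the Sigma than in the Gibco serum in each of the 3 media prepared from both. The normalized U4 sum was 83.1 times as high in FBS-1 as in FBS-2, 10.8 times in UC-dFBS-1 as in UC-dFBS-2 and 69.5 times in UF-dFBS-1 as in UF-dFBS-2, while the other snRNA differed by 1.30, 1.01 and 1.07 times. As a share of all counts, U4 was 8.14, 2.68 and 1.92 times as high, and the summed tRNA, which makes up most counts, was 12.4, 4.12 and 37.0 times as high on the spike-in scale. On that scale all 3 Sigma samples (330.0 to 557.2) lay above all 3 Gibco samples (6.71 to 30.5). The mean log2 difference of the sum was 5.31 ± 1.63 (SD, n = 3 media), for which 3 pairs allow no exact p below 0.25. The ratios in FBS and UF-dFBS are alike through the choice of the loci, so the 3 media are not independent repeats. Each supplier is represented by a single serum, so supplier and serum lot cannot be told apart.

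With medium as a term, all 10 U4 loci tested were higher in the Sigma serum by edgeR, against 62.1% of the 280 loci tested, so that most loci moved the same way. The other 40 U4 loci had too few counts for this test. With no filter on low counts, 12 of 42 U4 loci passed, against 179 of 1176 loci in all. The U4 log2 fold changes ranged from 4.94 (U4.44-201) to 5.71 (U4.57-201), with standard errors of 0.97 to 1.10 and adjusted p-values of 1.59e-05 to 4.14e-05, and their median was 5.34 against 3.13 over all loci. With medium as a term, these p-values measure how far the Sigma over Gibco difference varied between the media, with a single serum per supplier. The loci were chosen for UF-dFBS values near those of FBS in each serum, which by itself makes that difference alike in FBS and UF-dFBS. The p-values are thus not independent of the choice and are given as a description. The 10 loci cannot be treated as independent measurements. RNU4-1-201 was higher by 5.62 ± 1.05 and RNU4-2-201 by 5.17 ± 1.00 on the log2 scale (SE). Of the other snRNA, 0 of 22 loci tested passed (10 of U1, 10 of U2, 1 each of U11 and U12), with 0 at an unadjusted p under 0.05 and 0 calls by DESeq2 with spike-in size factors. Their median was -0.15 and their range -1.42 to 0.81, and no U6 or U5 locus had enough counts. Of the tRNA loci, 163 of 232 were higher. The difference between U4 and the other snRNA was not itself tested.

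The supplier calls depended on the scaling. With TMM, which moved the median of all loci from 3.13 to -0.29 and the split of calls from 174 higher and 0 lower to 50 higher and 60 lower, the log2 fold changes of the 10 U4 loci were 1.28 to 1.90 and 5 passed, while 19 of the 22 other snRNA loci were lower in the Sigma serum (median -3.38). DESeq2 with its own size factors split its calls into 88 higher and 57 lower and called all 10 U4 loci higher (median 2.03) and 21 of the 22 other snRNA loci lower (median -3.22). A small difference of the other snRNA between the sera was thus seen on the spike-in scale but not under these scalings. The gap between the U4 median and that of the other snRNA hardly depends on the scaling, which moves all loci of a sample alike. Without FBS-1, 0 of 10 U4 loci passed (adjusted p 0.0844 to 0.113, edgeR) at a median of 4.76, and 10 of 192 loci passed in all. In edgeR without the medium term, 0 of the 10 U4 loci passed (adjusted p 0.0925 to 0.0933), and so did 0 of all 280 loci.

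**Figure D5:**
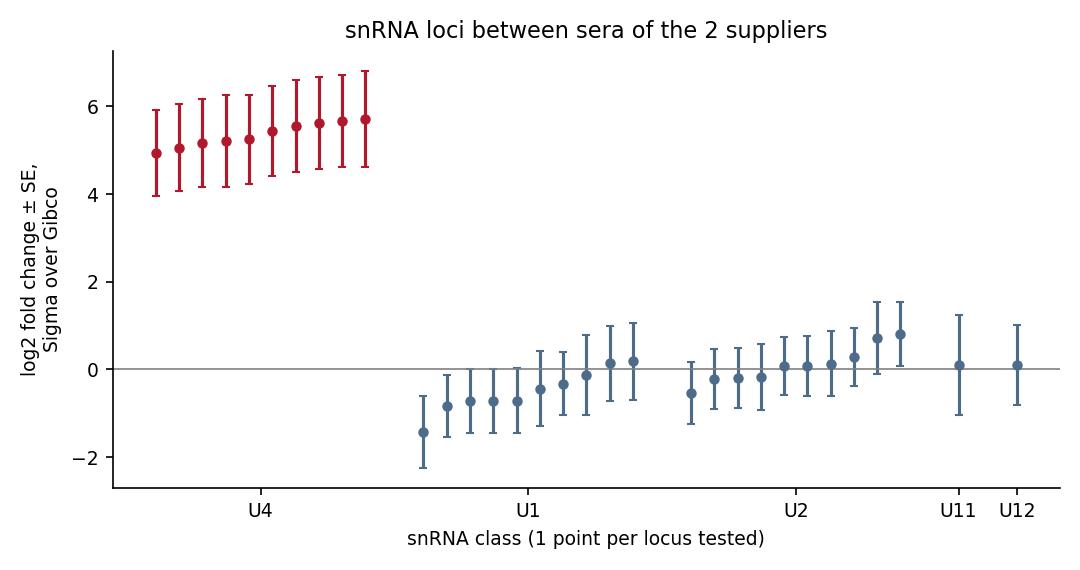
Log2 fold change, Sigma over Gibco serum, of each tested snRNA locus with its standard error, derived from the F statistic (edgeR, medium as a term, 6 samples). The 10 U4 loci lie between 4.94 and 5.71, and the 22 other snRNA loci between -1.42 and 0.81.

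StemPRO held the least U4 on the spike-in scale. Its 4 counts, of 6679 in all, gave a normalized value of 0.0370, which is 0.00552 times that in FBS-2 and 0.00497 times that in UF-dFBS-2, the serum samples with the least U4. As a share of all counts, its 0.0599% was 0.888 times that in FBS-1 and 7.23 times that in FBS-2. One count each fell on U4.57-201, U4.33-201, U4.38-201 and U4.59-201, and none on RNU4-1-201 or RNU4-2-201. Its 477 counts of other snRNA left U4 at 0.832% of snRNA (0.324 to 2.12), the lowest share of the 9 samples, with an interval that overlapped that of FBS-2 (1.25 to 2.16).

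The loci whose pattern over the 9 samples was most like the U4 sum were tRNA loci. On log2(normalized value + 0.1), the 5 of 365 other loci with the highest Pearson r were tRNA132-ValAAC (0.923), tRNA5-ValAAC (0.923), tRNA2-ValCAC (0.922), tRNA90-ValCAC (0.921) and tRNA9-ValCAC (0.920), against a median of 0.775. Without StemPRO their r was 0.827 to 0.835. These points share the spike-in factor and the sera, and the values are a description. In the Sigma serum these tRNA loci stood at 0.951 to 1.00 times their FBS value after ultrafiltration, as U4 did, and in the Gibco serum at 0.0694 to 0.102 times, unlike U4. Of the snRNA classes, U6 had the highest r with U4 (0.668) and U1 the lowest (0.271).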

How the data were processed

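Small ncRNA was sequenced from vesicle preparations of 9 media. The authors isolated RNA with a membrane kit and made libraries with 12 nt molecular indices and 22 PCR cycles, read as 75 bp single reads. Per the submitters' processing notes, cutadapt 1.11 and Bowtie2 2.2.2 were used with GRCh37. Reads left after miRNA assignment were aligned to the genome and counted per small ncRNA locus. The deposited counts are whole numbers, and the deposited normalized signal is the count divided by the slope of a line through zero fitted by the authors to spike-in counts. No sequence of a U4 locus was used here.

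The members and lists were chosen with earlier results of these data known. All members were counted. Loci with at least 10 counts in a sample were described singly, up to the 12 with the largest sum, and 5 other loci were named by correlation with the U4 sum (pseudocount 0.1). Within-serum ratios have exact conditional binomial intervals, and shares have Wilson intervals.

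Loci were tested with edgeR 4.0.16 (R 4.3.3; quasi-likelihood, library sizes set to the spike-in factors) and Benjamini-Hochberg adjustment at 0.05. The standard errors given with edgeR are the absolute log2 fold change divided by the square root of the F statistic. They restate the test and are not a separate estimate. The medium fit used the 8 FBS-based samples and loci with at least 10 counts in 2 of them, with medium as the only term and no pairing by serum. The supplier fit used the 6 samples of FBS, UC-dFBS and UF-dFBS, with medium as a term and at least 10 counts in 3. Alternatives were TMM, DESeq2 1.42.0, no filter, identical rows once, leaving out samples, the serum number as a block and, chosen after seeing the data, the U4 loci summed to 1 row. The scripts were tested on simulated data, where at the spread of the real samples the medium fits made no correct call and the supplier fit made many, so 0 calls between media show neither similarity nor stability. Nothing in the labels says that samples of a medium were separate preparations beyond the serum or lot, so p-values measure the spread between these samples.

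The sample numbers pair FBS, UC-dFBS and UF-dFBS through the shared serum. Log2 differences between samples 1 and 2 over 363 loci correlated at 0.759 (FBS and UC-dFBS), 0.604 (FBS and UF-dFBS) and 0.574 (UC-dFBS and UF-dFBS), but at -0.564 to -0.416 with SBI-dFBS, whose numbers mark lots.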

Additional observations from a re-analysis of the deposited data

Results flagged for a closer look

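The U4 sum moved in opposite directions in the 2 sera after ultracentrifugation, while after ultrafiltration its direction in the Gibco serum was not settled. After ultracentrifugation it stood at 0.592 times the untreated value in the Sigma serum and 4.55 times in the Gibco serum. After ultrafiltration it stood at 0.929 and 1.11 times, and the counting interval of the second spans 1 (0.808 to 1.55). With 1 sample per serum and medium, these differences between the sera were not tested. Measured against the other snRNA, without the spike-in factor, U4 was 1.10 and 6.53 times as high after ultracentrifugation and 46.7 and 45.8 times as high after ultrafiltration. For ultracentrifugation in the Sigma serum, the intervals of the U4 share of snRNA counts overlapped in part (50.2 to 52.9 in FBS-1 and 52.4 to 55.4 in UC-dFBS-1). Such an overlap does not test the difference between the shares, which was not tested.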

How the results depend on the processing

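The sums rested on single samples. UC-dFBS over FBS, 0.639 for the group means, ranged from 0.108 to 26.9 (without FBS-1) when 1 sample was left out and was 1.17 without UC-dFBS-2. It was 1.11 as a share of all counts. With serum as a block it was 1.64, which is a geometric mean of the within-serum ratios and not a ratio of arithmetic means. SBI-dFBS over FBS, 2.88, ranged from 0.120 (without SBI-dFBS-2) to 121 (without FBS-1). UF-dFBS over FBS, 0.932, ranged from 0.0264 to 39.2 with 1 sample left out. It was 1.02 with serum as a block (again a geometric mean), 8.37 as a share of all counts and 10.5 on raw counts. The log2 difference between Sigma and Gibco serum, 5.31, ranged from 4.78 to 6.25 with 1 sample left out and was 1.80 as a share of counts. The 10 supplier calls of U4 loci fell to 5 with TMM, where 110 of 280 loci were called in all. They fell to 0 with no replicate block (no medium term), where 0 of 280 loci were called. With 1 sample left out they ranged from 0 (without FBS-1, where 10 of 192 loci were called in all) to 10. For UC-dFBS and SBI-dFBS against FBS, every alternative run left 0 U4 loci called, which says nothing of stability since these fits could hardly call any locus. Over all loci the serum block gave 8 calls for UC-dFBS against 0, all lower and none of them U4. The U4 share of snRNA was 98.3% in UF-dFBS-1 and 0.247% in StemPRO with identical rows counted once, and 99.0% in UF-dFBS-1 and 53.3% in UF-dFBS-2 over loci with at least 10 counts in 2 samples. Depth limits FBS-2, UF-dFBS-2 and StemPRO most, with 50, 179 and 4 U4 counts. The cause of these changes was not tested.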
